A study of Caenorhabditis elegans with 7 samples.

Results

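The C-type lectin genes of Caenorhabditis elegans were taken as all genes whose symbol is clec- followed by a number. The annotation of WBcel235 holds 240 such genes under 237 symbols, since clec-15, clec-209 and clec-249 each name a pair of gene IDs. Of these, 108 (45.0%) have an entry among the 3′ UTRs in which reads were counted, against 72.9% of the 19985 protein-coding genes, and they are 108 of 27909 genes with an entry. The other 132 members are not analysed here, and 70 of them have a 3′ UTR in the annotation. All levels below refer to the 108 members with an entry, and 105 of these had a read in at least 1 library.

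C-type lectin domains fold around a calcium ion and, in many of the proteins that carry them, bind sugars. In C. elegans the family is unusually large, and most of its proteins are secreted or carried on the cell surface. Several members are known as genes that intestinal cells switch on during infection, and loss of a few makes worms more sensitive to bacteria. For most members no function is known.

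RNA of whole L4 larvae was sequenced from its 3′ ends in 7 libraries of a study that labels the RNA of one tissue. The control strain, BN1158, carries no FLP recombinase (4 libraries), and the strain BN1190 carries FLP under the dpy-7 promoter, which is active in the hypodermis, the outer epithelium that makes the cuticle (3 libraries, called hypodermal here). Both strains grew for 28 h at 20 °C and were then fed 4-thiouracil for 17 h, so the controls carry the compound too. Each sample pooled 3 plates of about 350 larvae, and the labels give no other alleles. Labelled RNA is read as T-to-C (T>C) mismatches after alkylation. The share of reads that the deposited counts give as reads with T>C is called the labelled share below. It is compared with the background in the control strain. Nothing in the labels says how far the replicates of a strain are separate cultures, so the p-values rest on the spread among 7 samples, part of which may be technical.

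Reads in genes ranged from 5040693 (control replicate 2) to 61924868 (hypodermal replicate 1). Control replicates 2 and 3 were the shallowest, and control replicate 1 and hypodermal replicate 1 the deepest. The file headers of the other 5 libraries name a lane with the same run code, and those of the deepest pair do not. All 10 hypodermal marker genes had reads in every library, with a summed level of 5089 to 7649 reads per 1000000 scaled gene reads (CPM) in controls and 6738 to 8508 CPM in hypodermal libraries. The 5 body wall muscle markers ranged from 2734 to 11961 CPM in controls, highest in control replicate 3, and from 5178 to 5942 CPM in hypodermal libraries. In whole animals, fewer cells of a type and less RNA per cell cannot be told apart.

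Members of the family lay unevenly over the chromosomes. They made up 35.8% of their number on chromosome V, where 25.0% of coding genes lie, and 1.25% on X, where 13.7% lie. There were 41 runs of neighbouring members with no other coding gene between them, and these runs held 125 members (52.1%). The longest run has 13 members at V:16839121-16869840, of which 2 have an entry. Members with entries had short 3′ UTR entries, with a median of 51 bases and 23 Ts, against 128 bases and 54 Ts for coding genes. The proteins had a median of 316.5 residues, from 114 in clec-249 to 3514 in clec-78, close to the median of 329 over all coding genes.

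Some neighbours in a run differed widely in level, and others were alike. In the run of 5 members at II:12893062-12906644, clec-63 had a mean of 558 CPM and clec-64 0.394 CPM. The mean level of clec-63 was 24.3 times that of clec-62 beside it. Over the 15 neighbouring pairs in which both genes averaged at least 20 reads per library, the higher was a median of 1.88 times the lower. The most alike pair was clec-145 and clec-146, with a ratio of 1.01. The least alike was clec-41 and clec-225, with means of 81.0 and 1.69 CPM and a ratio of 48.0. Reads were counted only in the 3′ UTR entries, and these differ in length between neighbours. The most-read entry had 160 bases in clec-41 and 9 in clec-225, and 3 in clec-145 and 62 in clec-146. The part of entry length in these ratios was not tested.

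**Figure D1:**
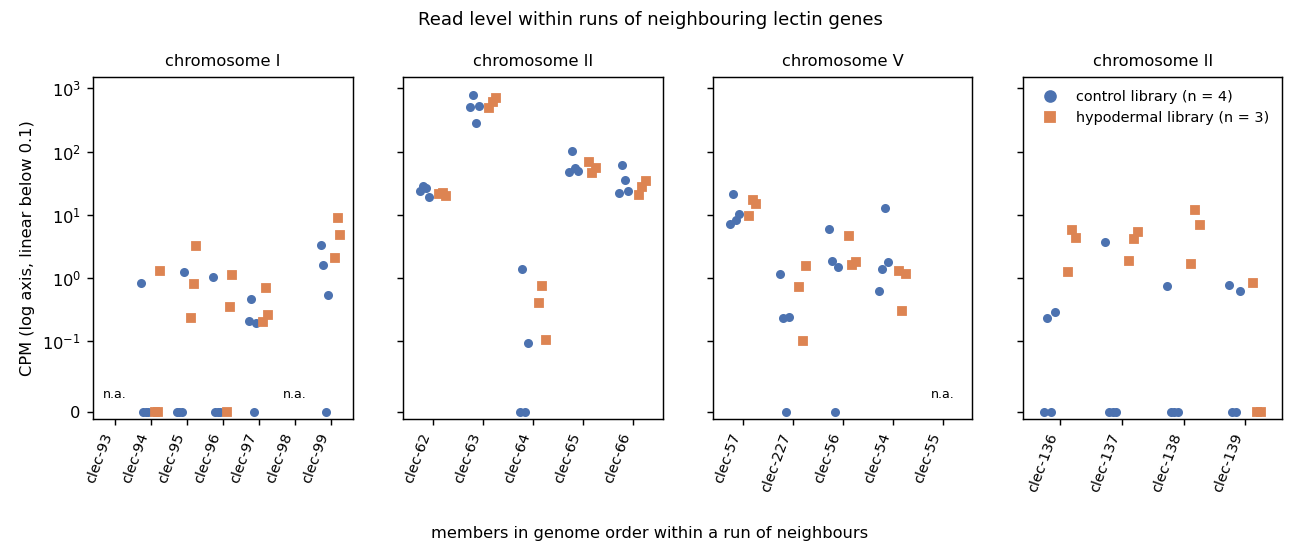
Level (CPM, log axis, linear at its foot) of neighbouring C-type lectin genes in each control library (circles) and hypodermal library (squares), 1 point per library. Only runs with at least 4 members that have an entry are drawn. Mean levels within 1 run spread from under 1 CPM to 558 CPM, as in the run that holds clec-63.

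A few members made most of the family's reads. CPM of 3′ ends counts 1 tag per transcript end, only where the tag falls in a kept entry, and was not divided by length. The family had a summed level of 2294, 2992, 3220 and 2349 CPM in control replicates 1 to 4 and of 2267, 2759 and 2720 CPM in hypodermal replicates 1 to 3. The groups overlapped, at 2714 ± 463 CPM (SD, n = 4) and 2582 ± 273 CPM (SD, n = 3), a ratio of 0.951. Within the 5 libraries with the shared run code the ratio was 0.960, and between the deepest pair it was 0.988. Only 6 members averaged 100 CPM or more, 32 lay from 10 to 100, 35 from 1 to 10 and 35 under 1. The single most-read member held 21.02% of the family's level, the first 3 held 42.3% and the first 12 held 76.9%. The 3 members with no read in any library were clec-29, clec-107 and clec-238, and a count of 0 allows up to 0.0442 to 0.699 CPM depending on the library (3 reads, counting error only).

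The most-read member was clec-63 (WBGene00009394, II:12895638-12897446, plus strand), at 512, 792, 283 and 528 CPM in controls and 484, 609 and 701 CPM in hypodermal libraries. Its hypodermal libraries all lay within the range of the controls, with means of 529 ± 208 (SD, n = 4) and 598 ± 109 (SD, n = 3) and a log2 difference of 0.18 (SE 0.34). The second, clec-1 (V:5700154-5701080), was the most variable of the 12 most-read members. It had 96.8, 145, 853 and 232 CPM in controls and 124, 313 and 336 CPM in hypodermal libraries, an 8.82-fold range. Its peak at 853 CPM was in control replicate 3, the library with the highest sum of body wall muscle markers. That sum varied mainly through unc-54, and any link to the level of clec-1 was not tested. The log2 difference between strains was -0.36 (SE 0.66).

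Next in level were 3 genes with means above 200 CPM in controls. The gene clec-87 (I:10184462-10185520), which encodes a chondroitin proteoglycan, had 252, 257, 253 and 396 CPM in controls and 182, 282 and 228 CPM in hypodermal libraries. Only control replicate 4 stood apart there, and the log2 difference was -0.33 (SE 0.29). The gene clec-50 (V:19752399-19755368) had 207.3, 252, 306 and 155 CPM in controls and 167, 194 and 152 CPM in hypodermal libraries, a log2 difference of -0.43 (SE 0.30). The gene clec-83 (IV:2839371-2841472) ranged from 77.2 to 407 CPM in controls but only from 161 to 211 CPM in hypodermal libraries. Reads of clec-83 overlap a 3′ UTR on the other strand, as do those of clec-51, clec-86, clec-91 and clec-264, and no source used here gives the strand setting of the counting.

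The other 7 of the 12 were clec-48, clec-150, clec-47, clec-41, clec-65, clec-88 and clec-80. The largest difference of these was for clec-47 at -0.75 (SE 0.40), with 98.4 ± 53.6 CPM (SD, n = 4) in controls and 58.2 ± 4.82 CPM (SD, n = 3) in hypodermal libraries. Its control libraries at 54.1 and 58.7 CPM lay among the hypodermal ones, and those at 168 and 113 CPM were the shallow replicates 2 and 3. The gene clec-41, whose protein acts against Bacillus thuringiensis in infected worms, was steady at 82.2 ± 17.4 CPM (SD, n = 4) and 79.3 ± 12.4 CPM (SD, n = 3).

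**Figure D2:**
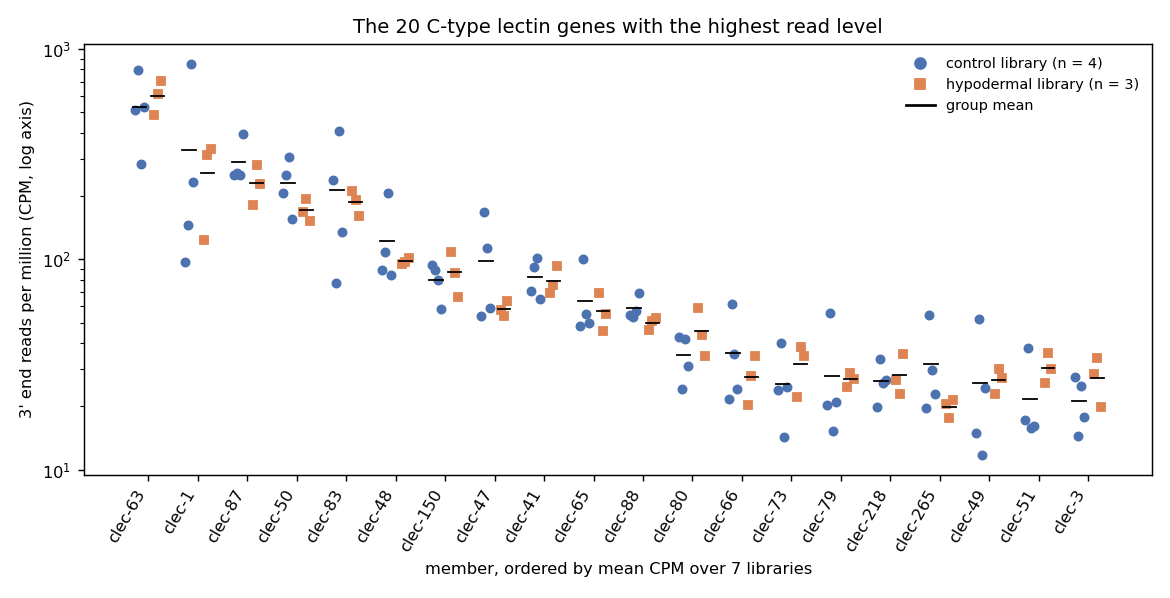
Level (CPM, log axis) of the 20 most-read C-type lectin genes in each of 4 control libraries (circles) and 3 hypodermal libraries (squares), with a line at each group mean. The symbols of the 2 strains overlap for every gene but clec-88, and clec-1 spreads from 96.8 to 853 CPM within the controls.

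Members known from infection work spanned a wide range of levels in these larvae, which were fed the ordinary laboratory Escherichia coli. The antimicrobial members clec-41 and clec-42 had means of 81.0 and 0.246 CPM over all libraries. The gene clec-85, which depends on the p38 kinase PMK-1 in infected intestine, had 9.12 ± 8.03 CPM (SD, n = 4) in controls and 11.9 ± 3.71 CPM (SD, n = 3) in hypodermal libraries. The gene clec-67, of the same kind, had 6.52 ± 3.63 and 9.09 ± 1.99 CPM. The gene clec-49, whose protein binds Serratia marcescens, was higher at 25.8 ± 18.4 and 26.8 ± 3.61 CPM. The infection-induced clec-61 had at most 2.37 CPM in any library. Of 26 members listed for a published role, 21 had an entry and 19 averaged at least 20 reads. The genes clec-60, also induced by infection, clec-38, clec-39, clec-70 and clec-71 have no entry and are not analysed here.

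Total reads were compared between strains with edgeR's quasi-likelihood test over 12465 genes, 77 of them members. No member passed an adjusted p of 0.05, with 0% of all genes called higher and 0.016% called lower in hypodermal libraries. At an unadjusted p under 0.05 there were 4 members higher (5.19%) and 0 lower, against 0.73% and 1.55% of all genes. Without control replicate 1 it was 9 of 73 members higher (12.3%) and 2 lower (2.74%), against 1.98% and 2.78% of all genes. Without hypodermal replicate 2 it was 2 of 77 members higher (2.60%) and 1 lower (1.30%), against 0.320% and 0.871%. DESeq2 called 0 members after adjustment, and 9 higher and 15 lower of all 12465 genes. Unadjusted it had 3 members higher and 1 lower, and 0.802% and 2.37% of all genes. The median log2 difference of the 77 members was 0.16, with 45 above 0, and that of all genes was -0.01. In 5 members every hypodermal library lay above every control (clec-61, clec-136, clec-138, clec-208 and clec-219), against 2.62% of all genes. The reverse held for clec-31 and clec-88, against 2.25%. The minimum of mean reads was taken over both strains together, so genes low in controls could enter through hypodermal reads alone. The members clec-61, clec-136 and clec-138 met it only in that way. The counts of higher members, unadjusted and without overlap, thus rest partly on such genes. The same minimum was applied to all genes.

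**Figure D3:**
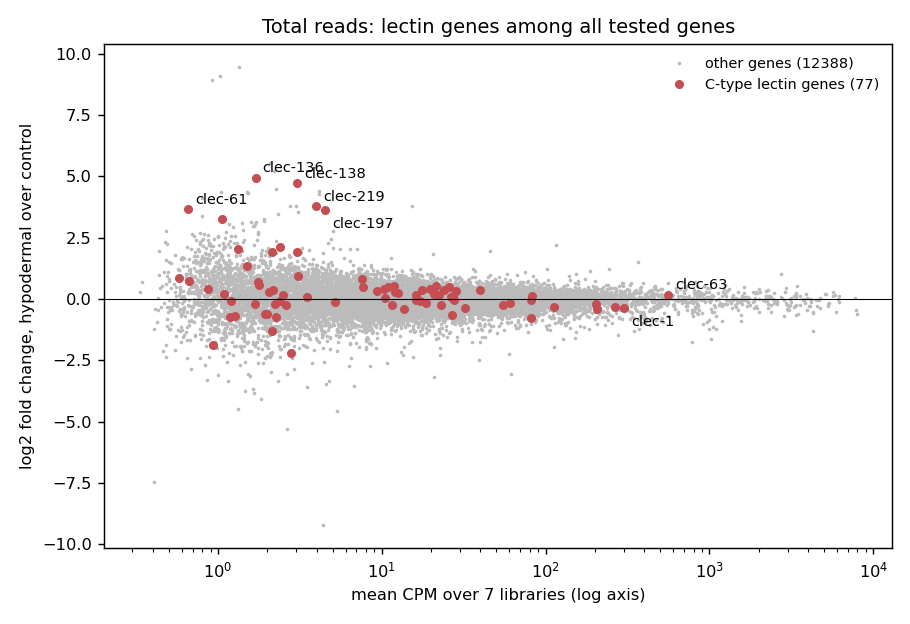
Log2 difference in total reads, hypodermal over control, against mean level (CPM, log axis) for all tested genes (grey) and the 77 tested C-type lectin genes (coloured). The members with the largest positive values sit at the low end of the level axis, and the most-read members lie near 0.

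The members with the smallest p-values were thinly read genes with at least 2 control libraries at 0 reads. The gene clec-138 (II:4618880-4619800) had 43, 0, 0 and 0 reads in controls and 114, 233 and 134 in hypodermal libraries. In CPM that was 0.75 in control replicate 1, and 1.68, 11.7 and 7.02 in the hypodermal libraries. Control replicate 4, with 20058447 gene reads, and hypodermal replicate 2, with 20317812, were of like depth but held 0 and 233 of them. The log2 difference was 4.73 (SE 1.34), with an unadjusted p of 0.00454 and an adjusted p of 1 by edgeR's test, and an adjusted p of 0.0864 by DESeq2.

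The gene clec-136 (II:4615574-4616543), in the same run of 4 neighbours as clec-138, had 0, 1, 0 and 6 reads in controls and 84, 116 and 81 in hypodermal libraries. Every hypodermal library was above every control, and the log2 difference of 4.94 (SE 1.49) had an unadjusted p of 0.00648 in edgeR's test. The gene clec-219 (V:8318435-8322867) had 117, 0, 0 and 0 reads, then 184, 280 and 169. The gene clec-197 (IV:17345553-17346699) had 2.61, 0, 0 and 0 CPM, then 1.33, 15.2 and 12.3 CPM. For these the log2 differences were 3.79 (SE 1.36) and 3.62 (SE 1.43), with unadjusted p of 0.0174 and 0.0266 by edgeR. For clec-197 the groups overlapped, since control replicate 1 lay above hypodermal replicate 1. Without control replicate 1 all controls of clec-138, clec-219 and clec-197 were at 0. The fitted log2 differences, which then depend on the prior count, were 10.3, 10.6 and 10.8, with adjusted p of 0.319, 0.206 and 0.312 by edgeR. The gene clec-61 had 0, 1, 0 and 5 reads in controls and 83, 47 and 10 in hypodermal libraries.

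In the other direction, clec-88 (II:6365722-6367002) had 54.4, 53.4, 56.9 and 69.4 CPM in controls and 46.4, 51.1 and 52.6 CPM in hypodermal libraries. The groups did not overlap, but the gap was small and the log2 difference was -0.23 (SE 0.27). The gene clec-31 had 2.51, 4.197, 3.03 and 1.81 CPM in controls and 0.884, 1.06 and 1.52 CPM in hypodermal libraries. Markers of sperm summed to 717 to 1784 CPM in controls and 656 to 1002 CPM in hypodermal libraries, and germline markers to 1187 to 2227 and 1121 to 1175 CPM. The part of any cell type in the reads of these members was not tested.

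Labelling was low in both strains. The labelled share of all reads of the family was 2.89%, 4.00%, 2.46% and 2.36% in controls and 3.10%, 3.26% and 3.54% in hypodermal libraries. Control replicate 2 was the highest of all 7, so the groups overlapped, at 2.93% ± 0.754 (SD, n = 4) and 3.30% ± 0.223 (SD, n = 3). The difference of 0.374 percentage points was near the 0.3998 points over all genes, where the shares were 3.16% ± 0.952 (SD, n = 4) and 3.56% ± 0.206 (SD, n = 3). It was 0.462 points in the 5 libraries with the shared run code and 0.210 points between the deepest pair.

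The labelled share was tested for 50 members with at least 10 labelled reads in total, among 9821 genes. By edgeR's quasi-likelihood test on labelled and unlabelled reads, 0 members passed an adjusted p of 0.05 in either direction, and 0% of all genes did. At an unadjusted p under 0.05 there was 1 member higher, clec-218, against 2.86% of all genes, and 0 lower, against 0.407%. By limma on log2 odds 0 members passed after adjustment, with 0 higher and 1 lower unadjusted, and by a quasi-binomial model 0 passed, with 1 higher and 0 lower. Of all 9821 genes, 2.49% were higher and 1.41% lower unadjusted by limma, and 7.29% and 2.08% by the quasi-binomial model, with 0 called by either. The median log2 odds ratio was 0.46 over the 50 members, of which 34 (68.0%) lay above 0, and 0.54 over all genes, of which 69.96% did. The 10 hypodermal markers had a median of 0.29, with 6 above 0 and 0 called. Of 38 tested members with at least 20 reads in every library, clec-52 and clec-230 had every hypodermal library above every control, against 5.75% of all genes, and 0 members had the reverse, against 0.384%.

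**Figure D4:**
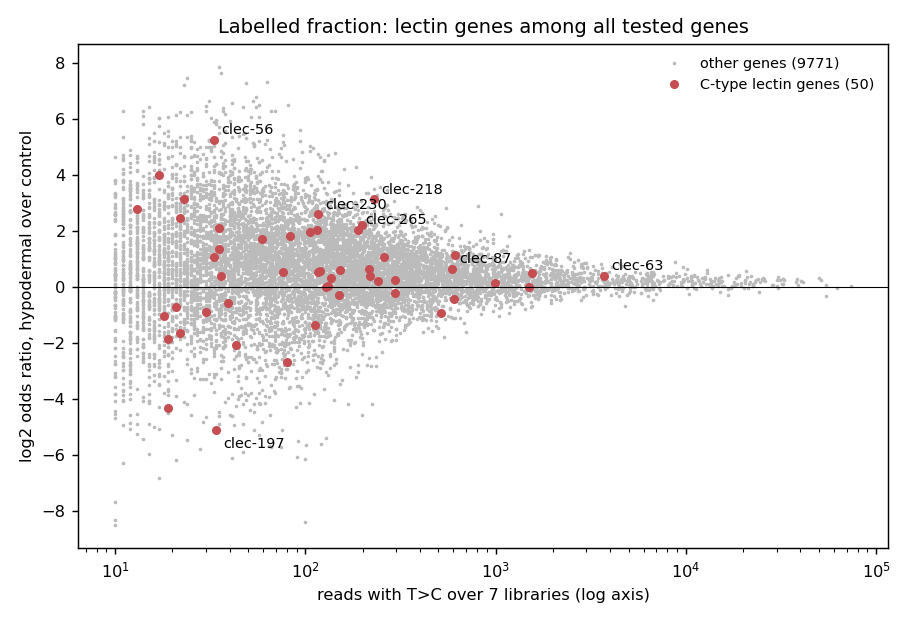
Log2 odds ratio of the labelled share, hypodermal over control, against the labelled reads over 7 libraries (log axis) for all tested genes (grey) and the 50 tested C-type lectin genes (coloured). The members lie within the cloud of other genes and narrow toward 0 as labelled reads increase, with clec-63 at 0.42.

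For the 12 most-read members the labelled shares of the strains overlapped. For clec-63 it was 3.64%, 4.24%, 1.15% and 3.22% in controls and 3.29%, 4.29% and 3.83% in hypodermal libraries, a log2 odds ratio of 0.42 (SE 0.42). For clec-1 it stayed between 1.81% and 2.89% in all 7 libraries although its level moved 8.82-fold, with a log2 odds ratio of 0.17 (SE 0.52). For clec-87 it was 0.478%, 1.45%, 2.78% and 0.837% in controls and 1.41%, 2.31% and 1.68% in hypodermal libraries, at 0.67 (SE 0.56). The gene clec-50 had an odds ratio of 0.51 (SE 0.61) on this log2 scale, and clec-48 one of -0.93 (SE 0.78). For clec-150 the share was 0.725%, 4.19%, 0.152% and 4.72% in controls and 5.60%, 1.29% and 5.13% in hypodermal libraries, at 1.15 (SE 0.94). For the 12 most-read members the standard errors ran from 0.42 to 1.36, so that differences of that size, and also somewhat larger ones, could not be resolved. Among the 13 members with at least 200 reads in each library, the share pooled over libraries ran from 1.22% in clec-87 to 4.48% in clec-265. As a mean of the 7 libraries it ran from 1.24% in clec-88 to 5.66% in clec-41, so the ends of the order differ between these averages.

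**Figure D5:**
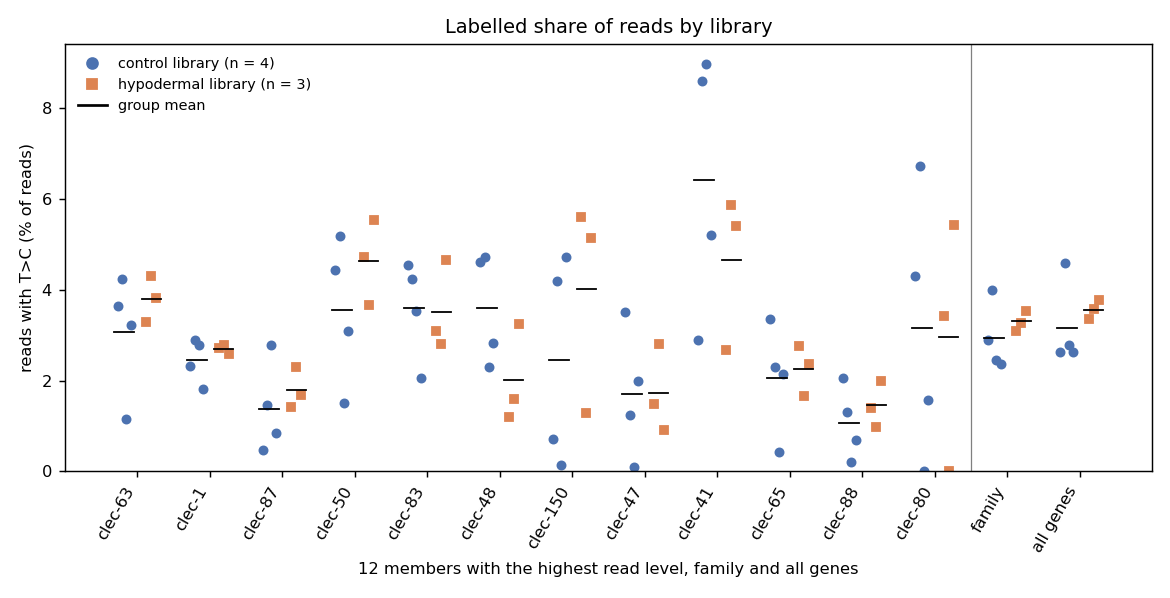
Labelled share of the 12 most-read C-type lectin genes in each of 4 control libraries (circles) and 3 hypodermal libraries (squares). The share is the percent of a gene's reads counted with T>C. The strains overlap for each of these genes, and clec-1 keeps between 1.81% and 2.89%.

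The member with the smallest p, clec-218 (V:8307942-8310766), had 0 labelled of 1138 reads, 13 of 144, 1 of 213 and 6 of 547 in controls, and 97 of 1819, 85 of 454 and 28 of 677 in hypodermal libraries. That was 0%, 9.03%, 0.469% and 1.10% against 5.33%, 18.7% and 4.14%. Control replicate 2 lay above hypodermal replicates 1 and 3, so the groups overlapped. The 95% Wilson interval of the highest value was 15.4% to 22.6%, and of control replicate 2 it was 5.35% to 14.8%, which cover counting error only, since reads without molecular identifiers are not independent molecules. The log2 odds ratio was 3.14 (SE 1.52), with an unadjusted p of 0.0384 and an adjusted p of 1 by edgeR's test. Without control replicate 2 it was 4.49, and the adjusted p by edgeR was 0.452. Its total level was flat, from 19.8 to 33.6 CPM in controls and from 22.9 to 35.5 CPM in hypodermal libraries.

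Shares jumped between libraries for other members too. For clec-186 they were 1.18%, 15.2%, 0% and 1.71% in controls and 7.02%, 20.4% and 5.30% in hypodermal libraries. The gene clec-56 (V:14474399-14476794) had 0 labelled reads in all controls, of 348, 8, 0 and 31, and 31 of 316, 0 of 32 and 2 of 34 in hypodermal libraries, with an unadjusted p of 0.085 by edgeR. In the other direction clec-197 had 24 labelled of 150 reads in control replicate 1, its only control with reads, and shares of 0%, 0% and 4.26% in hypodermal replicates 1 to 3. Its log2 odds ratio was -5.08 (SE 3.52), with an unadjusted p of 0.149 by edgeR. For clec-52 the shares were 0.496%, 4.82%, 0% and 5.43% against 6.10%, 7.92% and 9.62%, without overlap, at a log2 odds ratio of 2.05 (SE 1.78). Of members with 100 or more reads in a library, 17 of 63, 0 of 25, 11 of 28 and 3 of 40 had no labelled read in control replicates 1 to 4, or 26.98%, 0%, 39.3% and 7.5%. Over all genes with that many reads it was 19.3%, 6.14%, 33.3% and 12.7%. In hypodermal replicates 1 to 3 it was 12 of 62, 11 of 46 and 4 of 47 members, or 19.4%, 23.9% and 8.51%, against 13.2%, 17.2% and 9.77% of all genes. Members with 100 or more reads and no labelled read were thus found in every library but control replicate 2. Over the 50 tested members, Spearman's rho of the labelled share with the number of Ts in the entry was -0.36, and with mean CPM -0.40, where all points share the same 7 libraries. The minimum of 10 labelled reads admits thinly read members only at a high share. It kept clec-31, with 33 labelled of 334 reads, and left out clec-151, with 5 of 2386. A negative rho with mean CPM is thus favoured by the filter and is not read as a trait of the members.

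The authors' deposited table of 198 genes, made from the same libraries, lists a pair of members. In the authors' deposited table, clec-265 (X:3031783-3033117) has 0.0287% of its covered Ts converted in controls and 0.310% in the hypodermal strain, a ratio of 10.8, with an adjusted p of 0.0485. In the authors' deposited table, clec-230 (V:15347847-15349144) has 0% and 0.191%, with an adjusted p of 0.0772. These values count converted Ts within the 3′ UTR entry, which differ from the deposited counts of reads with T>C. The authors' table was not limited to an adjusted p under 0.05. Its p-values rest on the authors' own test and choice of genes, so they are not on the same footing as the edgeR values below.

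For clec-265 the converted Ts were 8 of 24208, 4 of 4898, 0 of 3573 and 0 of 9539 in controls and 106 of 32168, 19 of 8492 and 36 of 9574 in hypodermal libraries, so all hypodermal libraries were higher. Its labelled reads gave another picture, with 9, 6, 27 and 1 in controls and 92, 19 and 36 in hypodermal libraries. Control replicate 3 had a labelled share of 10.9% there, the highest of all 7, with no converted T in the entry. The log2 odds ratio was 2.06 (SE 1.44) on labelled reads, with an adjusted p of 1 by edgeR's test. On converted Ts it was 3.78, with an unadjusted p of 0.0154 and an adjusted p of 1 in the same test.

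For clec-230 no T was converted in any control, of 10527, 487, 198 and 1158 covered, and 74 of 25826, 1 of 2074 and 6 of 2512 were converted in hypodermal libraries. Yet 24 of 670 reads in control replicate 1 carried a T>C, a share of 3.58%, and 0 of 23, 0 of 22 and 0 of 58 in the other controls, where a count of 0 allows up to 13.04%, 13.6% and 5.17%. In hypodermal libraries the share was 6.55%, 8.77% and 4.29%. The log2 odds ratio on labelled reads was 2.62 (SE 2.12), with an unadjusted p of 0.217 by edgeR. On converted Ts the fitted value was 5.58, which depends on the prior count since all controls were at 0, with an unadjusted p of 0.0325 and an adjusted p of 1 by edgeR. Reads and converted Ts thus gave different control backgrounds for both genes.

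Other defence genes were read beside the lectins. A mixed list of 13 immune regulators held p38 pathway genes, from the receptor adaptor tir-1 to the kinase pmk-1 and the factor atf-7. It also held other regulators, such as daf-16, zip-2, fshr-1, hlh-30 and elt-2. Of the 13, 12 were tested and 0 were called by edgeR for reads or labelling. The phosphatase vhp-1 had a log2 difference of 0.98 in reads, with an unadjusted p of 0.038 by edgeR's quasi-likelihood test. The kinase sek-1, which acts on pmk-1, had a log2 odds ratio of 3.00 in labelling, with an unadjusted p of 0.0297 by the same edgeR test. Of 43 other antimicrobial effectors such as lysozymes and saposin-like proteins, 32 were tested for reads and 29 for labelling, and 0 were called. The saposin-like gene spp-8 had the smallest p of these lists, with labelled shares of 0.284% ± 0.286 (SD, n = 4) in controls and 3.37% ± 1.87 (SD, n = 3) in hypodermal libraries. Its log2 odds ratio was 3.57 (SE 1.08), with an unadjusted p of 0.000886 and an adjusted p of 1 by edgeR's test. Of 11 galectins, sugar-binding proteins of another fold, 0 were called. The galectin lec-11 had a log2 difference of -1.18 in reads, with an unadjusted p of 0.0291 by edgeR's test. For lec-8 the log2 odds ratio in labelling was 1.54, with an unadjusted p of 0.0284 by edgeR's test. The median log2 differences in reads of these lists were 0.11, 0.07 and 0.05, and the median log2 odds ratios in labelling 0.70, 0.83 and 0.31.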

How the data were processed

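The authors counted reads in 3′ UTR entries with slamdunk 0.4.3, per the file headers, and deposited these counts (reads, reads with T>C, covered and converted Ts) for 7 libraries, made with a 3′ mRNA kit after alkylation, per the labels' protocols. A deposited series table gives the authors' p-values, conversion fractions and their ratio, and its 21 columns of values per library were not used. The genome build ce10 and DESeq2 are named in the submitters' processing notes, while the headers name a WBcel235 annotation, so coordinates are those of WBcel235. No source used here gives the trimming or the T>C threshold per read. All deposited counts of multimapping reads are 0, so members that resemble each other may hold each other's reads or lack some.

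Of 47039 entries, 42202 were joined to genes by transcript and 4816 by sequence name, and the 21 without a gene (0.00444% of reads) were left out. Of overlapping entries of a gene the one with the most reads was kept (27909 genes). Same-strand UTR overlap with other genes touched 3411 genes, among them 0 members. Total reads were tested with edgeR 4.0.16 (TMM, quasi-likelihood F-test, two-sided, R 4.3.3) over genes averaging at least 20 reads, and labelling with the same test on labelled and unlabelled reads, a term per library and genes with at least 10 labelled reads, each with Benjamini-Hochberg adjustment over all tested genes at 0.05. Each SE was derived from the test, as the absolute log2 value over the square root of F. Both fits were first tested on simulated data. limma 3.58.1, DESeq2 1.42.0 and the other alternatives are reported at the end. Named members are the 12 most read, the 5 with the smallest p in each test, those in the authors' table, the extremes of the labelled share and 26 with a published role. clec-31, clec-208 and others named for their place in the genome or at 0 were chosen after their values were seen. Members and lists were chosen with earlier results of these data known. The protein motifs and the identity between members that had been planned were not analysed here.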

Additional observations from a re-analysis of the deposited data

Results flagged for a closer look

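In 8 of 40 sets of 4 control values examined, 1 library lay far from the other 3 by Dixon's test at the 95% level. Chance gives about 1 in 20 for continuous values, but 4 of the 8 sets were 1 value above 0 beside 3 zeros, which this test always marks, so the 8 are not set against that rate. For clec-87 it was control replicate 4 at 396 CPM, with the others at no more than 257. For clec-65 it was control replicate 2 at 101 CPM, with the next at 55.3. The thinly read clec-138, clec-219 and clec-197 had 0.749, 2.04 and 2.61 CPM in control replicate 1 and 0 in the others. For labelled shares it was control replicate 2 in clec-218 (9.03%) and clec-186 (15.2%), and control replicate 1 in clec-230 (3.58%).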

How the results depend on the processing

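The count of called members was 0 for reads and for labelling under every alternative run. Of all genes, labelling called 20 of 9730 higher without control replicate 2 and 1 of 9565 higher without control replicate 4. Without control replicates 2 and 3 it called 40 higher and 1 lower of 9692. In reads the largest counts over all genes were those of DESeq2, 9 higher and 15 lower. The ratio of summed CPM stayed between 0.931 and 0.996 under other scalings or without the 3 most-read members. The difference in labelled share was 0.336 points without those 3 members. As a median over members with at least 20 reads in every library, the labelled share was 1.81% ± 1.80 (SD, n = 4) and 2.84% ± 0.330 (SD, n = 3), a difference of 1.03 points. Leaving out 1 library at a time gave 0.905 to 1.01 for the ratio of summed CPM and 0.184 to 0.733 points for the difference in labelled share. The lowest adjusted p of a named member was 0.0864 for reads (clec-138, DESeq2) and 0.0549 for labelling (clec-87, edgeR without control replicates 2 and 3). Leaving out that pair of shallow libraries was chosen after seeing the data.

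Of 250 alternative values for reads, 19 in 8 members changed sign, and of 301 for labelling, 22 in 7 members, and the cause was not tested. Without control replicates 2 and 3, the log2 differences in reads became 0.66 for clec-1, 0.012 for clec-83, 0.19 for clec-48, 0.057 for clec-47, 0.24 for clec-41 and 0.21 for clec-65. In labelling the same step gave 0.14 for clec-83, -0.77 for clec-47, 0.20 for clec-41 and -0.28 for clec-65. Without TMM scaling clec-41 had 0.017 in reads. Converted Ts gave 0.59 for clec-83, -0.46 for clec-47 and 0.92 for clec-41 in labelling. The quasi-binomial model gave -0.59 for clec-47, -0.093 for clec-65 and -0.055 for clec-88. Centring on all reads gave -0.069 for clec-1 and moved the median of all genes from 0.54 to 0.30. Leaving out 1 library at a time, reads ranged from -0.68 to 0.70 for clec-1, -0.083 to 0.28 for clec-150, -0.18 to 0.045 for clec-41, -0.46 to 0.046 for clec-48, -0.052 to 0.45 for clec-63, -0.355 to 0.16 for clec-65 and -0.46 to 0.32 for clec-83. Labelling ranged from -0.43 to 0.81 for clec-47, -0.21 to 0.59 for clec-65, -1.51 to 1.03 for clec-80 and -0.26 to 0.15 for clec-83.

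The labels do not tie same-numbered replicates to a shared culture or day, though replicates 1 share their depth and the lack of a run code. Correlations of deviations in reads were 0.51, 0.18 and -0.08 for numbers 1 to 3, and hypodermal replicate 3 correlated best with control replicate 2. With the replicate number as a block, 0 members were called, and reads gave 0.059 for clec-1 and -0.031 for clec-150. Unadjusted, 3 members (3.90%) were higher in reads with that block, against 1.76% of all genes. With a term for the run code it was 8 members (10.4%), against 1.01% of all genes. The minimum of mean reads over both strains together, which can admit genes through hypodermal reads alone, applied to these counts too. Depth was 5040693 gene reads in the shallowest library, control replicate 2, which limits what could be seen for members under about 1 CPM. Depth was not the only limit. Control replicate 3 had 8537578 gene reads but reads in only 54 members, against 80 in control replicate 2. A count of 0 in control replicate 3 may thus mean less than its depth implies, and the reason was not tested.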
